A study of Mus musculus with 5 samples.

Results

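The voltage-gated sodium channel subunits described here are the pore-forming subunits Scn1a, Scn2a, Scn3a and Scn8a and the auxiliary subunits Scn2b, Scn3b and Scn4b. They were chosen by gene symbol, and all 7 were found among the 55385 genes of the count tables. All 7 passed the filter on low counts, which left 19768 genes. RNA was taken from the hippocampus of male C57/bl6 mice aged 3 months. Seizures were provoked with kainic acid (20 mg/kg, injected intraperitoneally), an agonist of glutamate receptors, and tissue was taken 1 h, 4 h or 8 h after their onset. The control library came from untreated animals. There were 5 libraries in 4 groups, with 2 libraries at 4 h (library 1 and library 2) and 1 library in each of the other groups.

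Voltage-gated sodium channels open when the membrane depolarizes and carry the inward current of the action potential. A pore-forming α subunit makes the channel, and auxiliary β subunits, which are single-pass membrane proteins with an immunoglobulin-like domain, modify its gating, its surface expression and cell adhesion. In the hippocampus Nav1.1 is prominent in inhibitory interneurons, Nav1.2 and Nav1.6 in the axons of excitatory neurons, and Nav1.3 is mainly known from the developing brain.

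The control library held 19100374 counts on genes, the 1 h library 17744508, the 4 h libraries 18250114 and 19109204, and the 8 h library 16612225. Counts on a member ranged from 405 to 12060 in a library, so counting error was small for all of them. Levels are given as normalized CPM, counts brought to a common library total with the TMM factors of edgeR, and intervals are exact 95% intervals that cover counting error only. Changes were tested by the edgeR quasi-likelihood test over all 19768 genes. The sources do not state whether a library is 1 mouse, so the p-values measure only the spread between these samples. The single libraries were assumed to vary like the pair at 4 h, and all comparisons share the same control library. In bulk tissue fewer cells of a type and less RNA per cell cannot be told apart.

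The 4 α subunits are close paralogs, and their sequences were compared in GENCODE M21 transcripts. Over the whole coding sequence, Scn2a and Scn3a shared 83.7% of aligned bases, Scn1a and Scn2a 83%, and Scn2a and Scn8a 73.6%. Of all stretches of read length in the Scn1a transcripts, 0.55% also occurred in Scn2a, the highest share among the α pairs, and Scn8a shared 0 with each of the others. The β members shared between 44.7% and 49.4% of aligned coding bases and 0 stretches of read length. No exon base of a member overlapped an exon of another annotated gene, although 4 members have a gene on the opposite strand within their bodies.

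The 4 h libraries stood apart in genes of other tissue. The 5 markers of choroid plexus and ependyma summed to 3919.5 normalized CPM in the control, then 1655 after 1 h, 32.4 and 4174 in libraries 1 and 2 after 4 h and 3035 after 8 h, with Ttr the most abundant. The 4 thalamus markers summed to 115, 134, 334, 143 and 89.7 in the same order, with Rora the most abundant, and the 5 neocortex markers to 111, 121, 187, 99.6 and 82.8, with Cux2 the most abundant in the control and at 1 h and Fezf2 in the later libraries. Library 1 at 4 h was thus lowest in choroid plexus genes and highest in the sums of thalamus and neocortex genes. Its neocortex sum rests on Fezf2 (276% of the control) and Rorb (203%), while Cux2 was at 107%, Tbr1 at 99.7% and Rspo1 at 65%. The 6 striatum markers summed to 60.3, 55.5, 63.7, 84 and 65.7 in the same order, highest in library 2. No gene of these lists was at 0 in any library. Scn1a and Scn4b were also highest in library 1 at 4 h, and the part of these markers in their values was not tested. Scn3a was at 50.1% of the control in library 1 and at 52.3% in library 2, so its lower level was seen with either library. The activity gene Fos, a check of the treatment, was at 10.8 in the control, then 999 after 1 h, 519 and 70.4 after 4 h and 17.2 after 8 h.

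With an adjusted p under 0.05, the edgeR quasi-likelihood test (Benjamini-Hochberg) called 0 of the 7 members at 1 h, 0 at 4 h and also 0 at 8 h. Over all genes tested the same rule called 0%, 0.00506% and 0% at these times. The check gene Fos, with log2 fold changes of 6.52 at 1 h and 4.76 at 4 h, was not called either. The 0 calls therefore say little about the members. Before adjustment, 0, 3 and 1 members had a p under 0.05 at 1, 4 and 8 h, against 2.42%, 11.6% and 4.51% of all genes tested. DESeq2 and limma-voom called 0 members at each time, where DESeq2 called 0.283%, 1.2% and 0.167% of all genes tested and limma-voom 0%. By size, 1 of the 7 members, Scn3a, was at least 1.5-fold below the control in both 4 h libraries. Over all genes tested this held for 6.28%, and for 3.42% of the 9976 genes with a mean of at least 10 normalized CPM. No member was at least 1.5-fold above the control in both 4 h libraries (10.1% of genes tested), and none was past this fold at 1 h or 8 h. At 1 h the fold was passed by 9.2% of genes below and 10.9% above, and at 8 h by 8.94% below and 14.1% above.

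**Figure D1:**
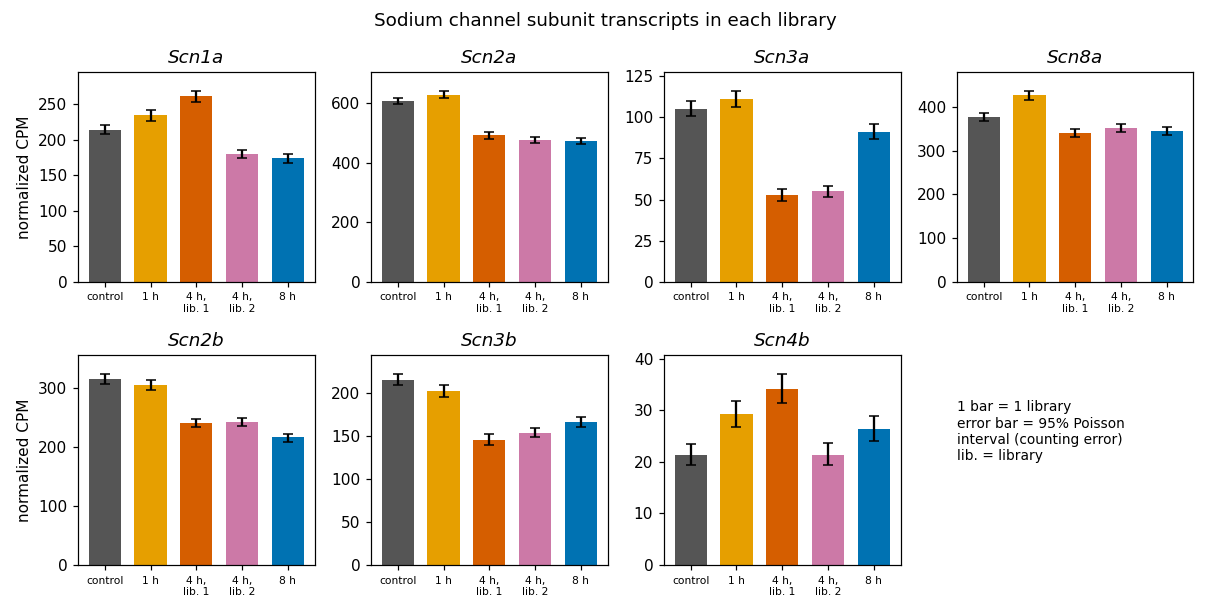
Normalized CPM of each sodium channel subunit in the 5 libraries, 1 bar for a library, with exact Poisson 95% intervals that cover counting error only. Scn3a stood at 52.6 and 54.9 in the 4 h libraries against 105 in the control, and Scn4b is the member with the lowest counts.

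Scn1a (ENSMUSG00000064329.13), which encodes Nav1.1, was measured at 214 normalized CPM in the control, 235 at 1 h, 262 and 180.3 in the 4 h libraries 1 and 2, and 174 at 8 h. The 4 h libraries lay on opposite sides of the control. Their ratio of 1.45 (log2 ratio 0.54) was wider than that of 72.8% of the genes tested. The median absolute log2 ratio of the pair was 0.267 over all genes tested. It was 0.171 over the 9976 genes with a mean of at least 10 normalized CPM, a set that includes Scn1a. At 4 h the log2 fold change stood at 0.05 (SE 0.25, adjusted p = 0.959 in the edgeR quasi-likelihood test, Benjamini-Hochberg adjusted), and it was -0.09 when libraries were scaled by their size alone. At 1 h and 8 h it was 0.13 and -0.30.

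Scn2a (ENSMUSG00000075318.13), the gene of Nav1.2, was the α subunit with the most counts, with 606 normalized CPM in the control, then 628 after 1 h, 491 and 476 after 4 h and 471 after 8 h. The 3 later libraries were close to each other, at 77.7% to 81% of the control, and below the control and the 1 h library. Here the 4 h pair had a ratio of 1.03. The log2 fold change was -0.33 at 4 h (SE 0.16, adjusted p = 0.488) and -0.36 at 8 h (SE 0.18, adjusted p = 1), both from the edgeR quasi-likelihood test after Benjamini-Hochberg adjustment. At 1 h it was 0.05, and -0.02 with library size alone.

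Scn3a (ENSMUSG00000057182.15), which encodes Nav1.3, had 105 normalized CPM in the control (interval 101 to 110 from 2091 counts) and 111 at 1 h. It had 52.6 (interval 49.2 to 56.2) and 54.9 (interval 51.7 to 58.4) in the 4 h libraries, and 91.2 at 8 h. Both 4 h libraries were thus the lowest, at 50.1% and 52.3% of the control, and the 8 h library was at 86.8%. At 4 h the log2 fold change stood at -0.96 (SE 0.16, adjusted p = 0.245 in the edgeR quasi-likelihood test, Benjamini-Hochberg adjusted), which misses the threshold. It passed the threshold in 2 of the 9 alternatives with a test, library size alone (adjusted p = 0.0282) and no filter on low counts (adjusted p = 0.000137), with adjusted p between 0.000137 and 1 over all of them. At 8 h against 4 h the log2 difference was 0.76 (SE 0.16, adjusted p = 0.463 in the same edgeR fit with Benjamini-Hochberg adjustment). With no filter on low counts it was called (adjusted p = 0.0111, in a range from 0.0111 to 0.542 over 5 alternatives chosen after seeing the data).

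Scn8a (ENSMUSG00000023033.14), the gene of Nav1.6, the main channel of mature axon initial segments and nodes of Ranvier, was at 377 normalized CPM in the control, then 427 after 1 h, 341 and 353 after 4 h and 345 after 8 h. Its highest value was at 1 h and the 3 later libraries lay close together, at 90.5% to 93.5% of the control. The log2 fold changes of 0.18, -0.12 and -0.13 at 1, 4 and 8 h were no larger than their SE of 0.18, 0.16 and 0.18.

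**Figure D2:**
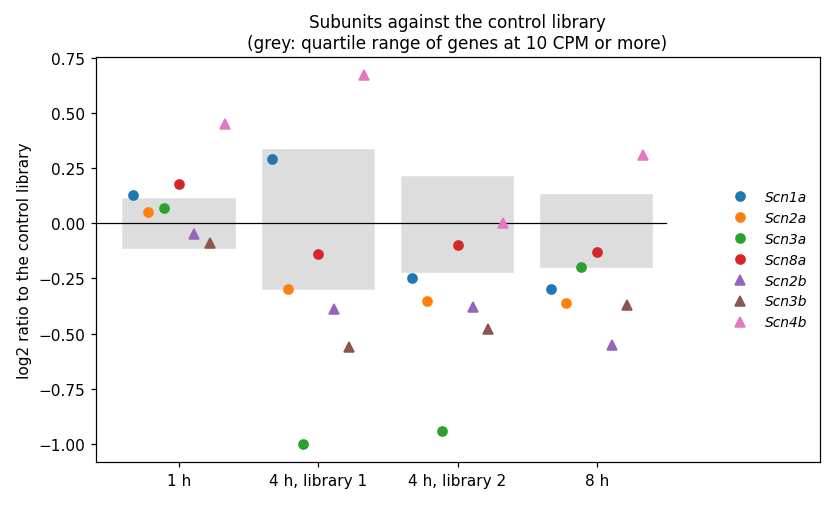
Log2 ratio of each subunit to the control library in the 4 kainic acid libraries, circles for α and triangles for β subunits, with the quartile range of the 9976 genes at 10 or more normalized CPM in grey. Scn3a lies lowest in both 4 h libraries, and Scn1a and Scn4b differ between these libraries.

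Divided by the length of merged annotated exons, Scn2a gave 48% of the summed level of the 4 α subunits in the control, Scn8a 24.1%, Scn1a 19.4% and Scn3a 8.51%. This order was kept in the libraries at 1 h and 8 h and in library 2 at 4 h, while in library 1 at 4 h Scn1a (26.7%) was above Scn8a (24.6%). The share of Scn3a was 8.34% after 1 h, 4.81% and 5.49% after 4 h and 8.96% after 8 h. As a share of raw counts, Scn3a had 8.07% in the control (exact binomial 95% interval 7.74 to 8.41). In the 4 h libraries it had 4.59% (4.3 to 4.89) and 5.17% (4.86 to 5.48), below the control interval. These intervals cover counting error only and do not measure the spread between samples. Between the 4 h libraries themselves they also did not overlap for Scn1a (22.2 to 23.4 and 16.4 to 17.5). The same held for Scn8a (29.1 to 30.4 and 32.5 to 33.8) and for Scn2a, while those of Scn3a overlapped. The summed level of the 4 α subunits, set against the control, was 107% after 1 h, 88.7% and 81% after 4 h and 82.5% after 8 h.

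**Figure D3:**
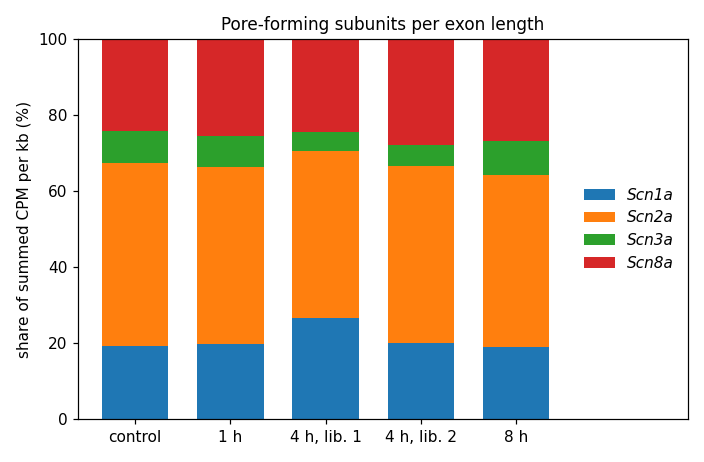
Share of each pore-forming subunit in their summed normalized CPM per kb of merged exons, 1 bar for a library. Scn2a takes 43.9% to 48% in every library, and the share of Scn3a is lowest in the 4 h libraries.

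Scn2b (ENSMUSG00000070304.12), whose protein is joined to the α subunit by a disulfide bond, was at 315 normalized CPM in the control, then 304 after 1 h, 241 and 242 after 4 h and 216 after 8 h. The 3 later libraries were the lowest, and the 4 h pair differed by less than that of nearly all genes tested (1.99% had a smaller ratio). The log2 fold change was -0.38 at 4 h (SE 0.15, adjusted p = 0.43) and -0.55 at 8 h (SE 0.18, adjusted p = 1), both from the edgeR quasi-likelihood test after Benjamini-Hochberg adjustment. The 8 h library was at 68.4% of the control, the lowest of the 7 members at that time.

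Scn3b (ENSMUSG00000049281.16), whose protein binds α subunits without a covalent bond, was at 215 normalized CPM in the control, then 203 after 1 h, 146 and 154 after 4 h and 166 after 8 h. It was lowest in the 4 h libraries, at 67.7% and 71.7% of the control, and at 77.3% at 8 h. The log2 fold change was -0.52 at 4 h (SE 0.16, adjusted p = 0.358 in the edgeR quasi-likelihood test, Benjamini-Hochberg adjusted) and -0.37 at 8 h.

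Scn4b (ENSMUSG00000046480.6), whose protein is also linked to the α subunit by a disulfide bond and is associated with resurgent sodium current, had the lowest level per exon length of the 7 members in the control, at 4.29 normalized CPM per kb. Its normalized CPM was 21.4 in the control, then 29.2 after 1 h, 34.1 and 21.4 after 4 h and 26.4 after 8 h. Library 1 at 4 h was the highest and library 2 equalled the control. At 4 h the log2 fold change stood at 0.38 (SE 0.33, adjusted p = 0.689 in the edgeR quasi-likelihood test, Benjamini-Hochberg adjusted), and it was 0.68 with library 1 alone and 0.01 with library 2 alone.

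Of the 7 members, 5 were below the control in both 4 h libraries (38.3% of genes tested), 6 at 8 h (48.9%) and 2 at 1 h (50.9%), or 3 at 1 h when libraries were scaled by their size alone. The median log2 fold change of the members was 0.07, -0.33 and -0.30 at 1, 4 and 8 h, beside -0.01, 0.01 and 0.01 over all genes tested. Scaling by library size alone shifted the median change of all genes at 4 h by -0.12. Relative to the median under that scaling, Scn3a, Scn3b, Scn2b, Scn2a and Scn8a stood at -0.98, -0.53, -0.40, -0.34 and -0.13 at 4 h, and Scn1a and Scn4b at 0.02 and 0.35. Summed per kb, the 3 β members stood, set against the control, at 97.3% after 1 h, 76.6% and 76% after 4 h and 73.7% after 8 h.

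Scn9a, an α gene of peripheral neurons, had 85 counts in the control, then 50 after 1 h, 30 and 44 after 4 h and 37 after 8 h. Scn7a had 113, 73, 74, 82 and 41 counts in the same order. The edgeR quasi-likelihood test, DESeq2 and limma-voom called 0 of these 2 genes at each time. Of all genes tested, edgeR called 0%, 0.00506% and 0% at 1, 4 and 8 h, DESeq2 0.283%, 1.2% and 0.167% and limma-voom 0%. In the edgeR test 0, 0 and 1 of the 2 genes (Scn7a) had an unadjusted p under 0.05, as had 2.42%, 11.6% and 4.51% of all genes tested. Scn4a, Scn10a and Scn11a had between 0 and 3 counts in each library, at or under the floor of 3 counts, and did not pass the filter.

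On GRCm38, Scn3a lies on chromosome 2 from 65457118 to 65567627 on the minus strand and Scn2a from 65620771 to 65767447 on the plus strand, head to head with 53.1 kb and 0 annotated protein-coding genes between them. These neighbours had unlike values at 4 h, with Scn3a at 50.1% and 52.3% of the control and Scn2a at 81% and 78.5%. Scn1a follows on the same chromosome from 66270778 to 66440840 on the minus strand. On chromosome 9, Scn2b (45117782 to 45130070) and Scn4b (45138395 to 45154152) lie on the plus strand 8.32 kb apart, and Scn3b (40269217 to 40291618, plus strand) is on the same chromosome. Scn2b was below the control in the 4 libraries after kainic acid, and Scn4b was at or above it in them. Scn8a is on chromosome 15 from 100869858 to 101045938, plus strand.

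Promoter windows of 300 bases were read from RefSeq (GRCm38.p6) for 5 of the 7 members, with 7 windows in all. Scn3a and Scn3b were not among them. Those of Scn2a and Scn2b are shown because these genes had the lowest values at 4 h and 8 h, set against the control, of these 5 members, with Scn2a at chr2:65668436-65668735 and Scn2b at chr9:45117626-45117925, both on the plus strand. Scn2a has 2 windows, and the one shown lies within the gene and was chosen because it holds a match. The other (chr2:65620519-65620818), at the start of the annotated gene, holds none of the letters searched. Capitals mark the letters TATAAA.
Scn2a: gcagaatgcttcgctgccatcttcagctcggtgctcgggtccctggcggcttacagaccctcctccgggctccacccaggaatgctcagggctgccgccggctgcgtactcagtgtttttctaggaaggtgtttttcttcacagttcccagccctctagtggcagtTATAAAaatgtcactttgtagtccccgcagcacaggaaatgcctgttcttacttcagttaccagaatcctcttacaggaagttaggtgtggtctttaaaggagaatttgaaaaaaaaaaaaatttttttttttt
Scn2b: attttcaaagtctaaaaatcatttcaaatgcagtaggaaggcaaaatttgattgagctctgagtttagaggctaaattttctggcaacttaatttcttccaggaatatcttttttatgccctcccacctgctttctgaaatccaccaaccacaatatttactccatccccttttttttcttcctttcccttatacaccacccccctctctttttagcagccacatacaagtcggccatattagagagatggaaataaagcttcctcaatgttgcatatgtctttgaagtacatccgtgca
Both strands were searched for the cyclic AMP response element TGACGTCA and its core TGACG, which it contains, the AP-1 site TGANTCA, the TATA box TATAAA, and TTCAGCACC and GGACAG, the arms of the element bound by the repressor REST. TATAAA occurred in this Scn2a window, and GGACAG in 1 window of Scn8a. The other letters searched were in none of the 7 windows. Among all 32851 windows, TGACGTCA was in 1.79%, TGACG in 20.8%, TGANTCA in 7.81%, TATAAA in 13.6%, TTCAGCACC in 0.371% and GGACAG in 22.2%.

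Partners of the channels were described as 4 lists with 53 genes, all tested, of which the edgeR quasi-likelihood test called 0 at 1 h, 4 h and 8 h (2, 12 and 7 had an unadjusted p under 0.05, as had 2.42%, 11.6% and 4.51% of all genes tested). DESeq2 called 1, 2 and 0 of them, Sgk1 at 1 h and Sgk1 and Ndfip2 at 4 h, and limma-voom called 0 at each time. Over all genes tested DESeq2 called 0.283%, 1.2% and 0.167% and limma-voom 0% at each time. Of the 17 anchors and adhesion partners, 3 had an unadjusted p under 0.05 and were higher at 4 h, and 0 were lower, and at 8 h 3 were higher and 1 was lower. Over all genes tested 7.21% were higher and 4.38% lower by this rule at 4 h, and 2.39% and 2.12% at 8 h. The largest log2 fold changes of this list at 4 h were those of S100a10 (1.33), Tnc (0.64), Ank3 (0.59) and Ptprz1 (0.56). Tnc was at 208% of the control in library 1 and at 105% in library 2, so its value rests on library 1, and Ptprz1 was at 140.1% and 154%. S100a10, an annexin partner that carries some sodium channels to the membrane, was at 8.34 normalized CPM in the control, then 8.19 after 1 h, 20.9 and 21.3 after 4 h and 22.2 after 8 h. Ank3, whose product ankyrin-G anchors channels at the axon initial segment, was at 387, 428, 655, 512 and 613 in the same order. All 3 libraries from 4 h on were above the control for both genes.

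Of the 4 fibroblast growth factor homologous factors, which bind the cytoplasmic tail of α subunits, 2 (Fgf11 and Fgf13) were below the control in both 4 h libraries (38.3% of genes tested) and all 4 at 8 h (48.9%), also under the other scalings. Their log2 fold changes at 4 h were -0.54 for Fgf11, -0.40 for Fgf13, 0.20 for Fgf14 and 0.11 for Fgf12. Fgf12 was at 118 normalized CPM in the control, then 122 after 1 h, 136 and 119 after 4 h and 80.1 after 8 h. Among the 17 genes of turnover, kinases and proteolytic processing, 3 were higher at 4 h with an unadjusted p under 0.05 and 1 was lower (7.21% and 4.38% of all genes tested). The largest log2 fold changes here at 4 h were those of Sgk1 (1.68), Ndfip2 (1.12), Fyn (1.05) and Nedd4l (0.63). In libraries 1 and 2 Ndfip2 was at 256% and 179.6% of the control, Fyn at 242% and 173% and Nedd4l at 184% and 126%. Sgk1, a kinase that restrains the ubiquitin ligase Nedd4-2, was at 119 in the control, then 397 after 1 h, 416 and 343 after 4 h and 115 after 8 h, so the libraries at 1 h and 4 h were high and the 8 h library was near the control. Of the 15 transcription and RNA regulators, 4 were higher at 4 h and 1 was lower by the same unadjusted rule, with the same shares of all genes. The largest log2 fold changes were 1.04 for Srrm4, 0.92 for Mbnl2, 0.89 for Rest and 0.67 for Rcor1. Normalized CPM in the control and in libraries 1 and 2 at 4 h was 14.6, 37.1 and 23.2 for Srrm4, 301, 669 and 468 for Mbnl2 and 23.3, 45 and 29.2 for Rcor1. Rest, the gene of the repressor REST, was at 10.8 in the control, then 10 after 1 h, 21.2 and 18.8 after 4 h and 17.4 after 8 h.

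**Figure D4:**
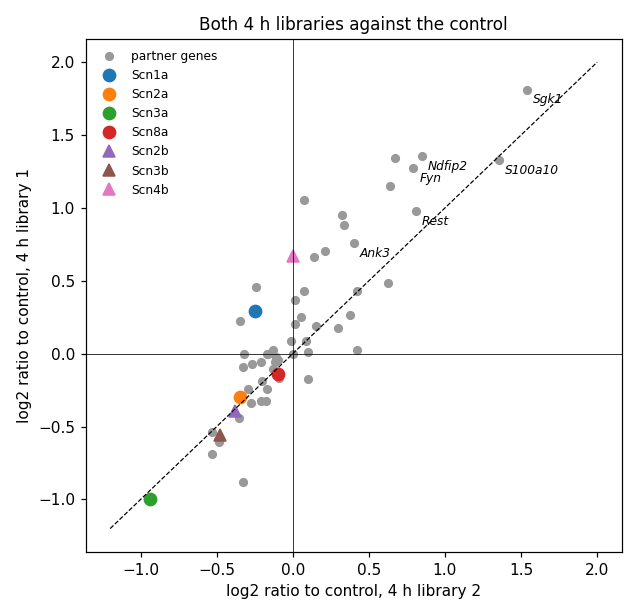
Log2 ratio to the control of the 7 members and the 53 partner genes in library 1 (vertical) against library 2 (horizontal) at 4 h, with the line of equal ratios dashed. Scn3a, Scn3b, Scn2b, Scn2a and Scn8a lie near the line below 0, and Scn1a and Scn4b lie above it.

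The time courses most like those of the members were found among 9976 genes as the smallest root mean square distance of log2 ratios to the control over the 4 kainic acid libraries. For Scn3a these were Col5a1 (distance 0.0613), Rapgefl1 (0.083) and Gprin3 (0.0883), with 47.6% to 55.8% of the control in the 4 h libraries and 83.7% to 91.3% at 8 h. For Scn2a they were Ggt7, Pcbp4 and Umad1, for Scn2b Tnfrsf21, Rusc1 and Capn5, and for Scn3b Tmem181a, Cep19 and Gtf3a. Scn1a was nearest to Hivep1, Serpini1 and Tmem56, Scn8a to Fam49b, Abhd17a and Kifc3, and Scn4b to Gm37331, Tra2a and Sra1. Scn3a was farther from its control level over the 4 libraries than 91.4% of these genes, and Scn8a farther than 19%.

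Markers of neuron types were also summed, and the edgeR quasi-likelihood test called 0 of them at each time. Over all genes tested, 38.3% were below the control in both 4 h libraries and 48.9% at 8 h. No such share is given for genes above the control, so counts of markers above it are listed without a reading. The 5 markers of neurons summed to 3285, 3439.6, 3344, 3030.2 and 2785 normalized CPM in the control, at 1 h, in both 4 h libraries and at 8 h, with Snap25 the most abundant, and 4 of 5 were below the control in both 4 h libraries and 5 of 5 at 8 h. Rbfox3 was the lowest of them at 4 h, at 68.8% and 69.2% of the control. Those of excitatory neurons summed to 2302, 2273, 1842, 2075 and 2122 (most abundant Camk2a), and 3 of 5 were below the control in both 4 h libraries. Of these Neurod6 was at 42.2% and 46.5% of the control in the 4 h libraries and at 72.2% at 8 h, beside 50.1%, 52.3% and 86.8% for Scn3a. For dentate granule cells the sums were 316, 317, 282, 236 and 314 (most abundant Calb1 in the control and at 1 h, Prox1 later), and 4 of 5 were below in both. Within this list Prox1 was at 286% and 199% of the control in the 4 h libraries 1 and 2, while Dsp was at 6% and 18.8%, Lct at 11.5% and 34.8%, C1ql2 at 37.6% and 39.8% and Calb1 at 87.3% and 70.9%. The median log2 fold change of the list at 4 h was -1.36, and 3 of 5 were at least 1.5-fold below the control in both libraries (6.28% of genes tested). For inhibitory neurons they were 756, 795, 1049, 951 and 699.6 (most abundant Gad1 in the 4 h libraries), with 2 of 5 above and 0 below in both. Those of CA1 and CA3 summed to 191, 189.6, 167, 202 and 229 (most abundant Wfs1 up to 4 h, Grik4 at 8 h), with 1 of 5 above and 1 of 5 below in both, and those of parvalbumin and other interneurons to 299, 311, 358, 336 and 327 (most abundant Cck), with 3 of 5 above and 0 below. Within this last list Npy was at 155% and 233% of the control after 4 h and at 340.2% after 8 h. It had 26 normalized CPM in the control and 88.5 at 8 h. At 8 h 2 of 5 were above the control and 3 of 5 were below (Sst 79.1%, Cck 87.6% and Pvalb 93.7%), so the higher sum there rests on Npy. The part of these markers in the values of Scn2a, Scn3a, Scn2b and Scn3b was not tested.

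**Figure D5:**
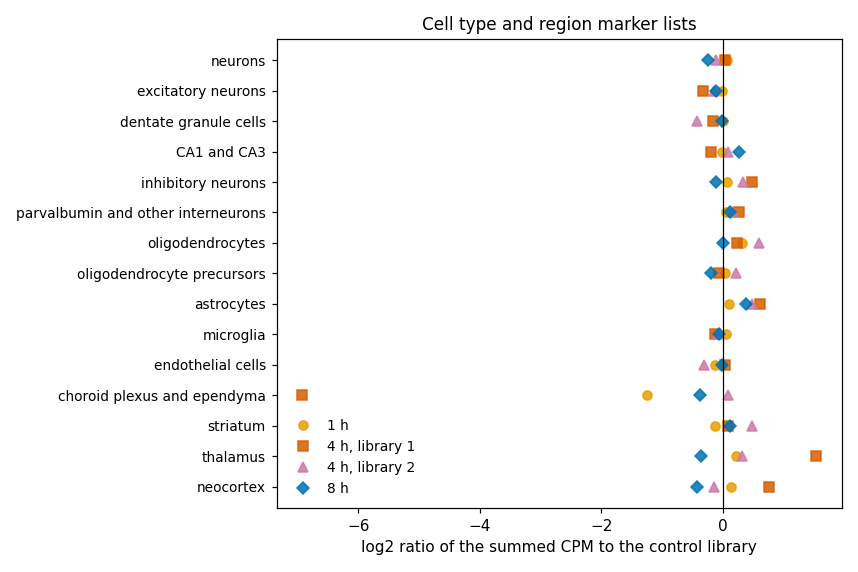
Log2 ratio to the control of the summed normalized CPM of 15 marker lists in the 4 kainic acid libraries. Choroid plexus genes are far below the control in library 1 at 4 h (32.4 against 3919.5), and thalamus genes are highest there.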

How the data were processed

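The authors made stranded total RNA libraries, aligned the reads with STAR 2.5.1b to GRCm38.p4 and counted them with HTSeq, per the submitters' processing notes, and deposited raw counts per gene. The sources used here give no strand setting, annotation or HTSeq version. Reads on no gene made up 24.7%, 29%, 33.1%, 25.3% and 30.9% of reads in the control, at 1 h, in the 4 h libraries 1 and 2 and at 8 h, and stayed out of the library sizes. Of the 55385 identifiers, 55144 were found in GENCODE M21, 54487 with the same version. Those of Scn2a and Scn3a have another version there, so their exon lengths may differ from those counted.

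Analysis used edgeR 4.0.16 in R 4.3.3 (filterByExpr, TMM, quasi-likelihood fit with 4 groups over 5 libraries and 1 residual degree of freedom, Benjamini-Hochberg adjustment over all genes tested, log2 fold changes with a prior count of 2). DESeq2 1.42.0 and limma 3.58.1 were alternatives, beside other scalings, filters, assumed coefficients of variation and leaving out each 4 h library. The scripts were tested on simulated data. Exact Poisson and binomial 95% intervals cover counting error only, and 3 counts were taken as the floor. The named genes are the members, other sodium channel genes, up to 4 genes of each partner list by size of change at 4 h, 1 activity gene, genes of the marker lists and the 3 nearest time courses of each member. The members and lists were chosen with earlier results of these data known. Contrasts between time points and the smaller set of genes at 10 or more normalized CPM were added after seeing the data. Some items are not reported here. Figures were drawn with matplotlib 3.10.9.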

Additional observations from a re-analysis of the deposited data

Results flagged for a closer look

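The share of reads that lay on no annotated gene, a part of the tables used in no comparison, was above the 24.7% of the control in each library after kainic acid. It was 29% at 1 h, 33.1% and 25.3% in the 4 h libraries 1 and 2, and 30.9% at 8 h. Its part in the levels of the sodium channel subunits was not tested. In library 1 at 4 h, where it was highest, Scn1a and Scn4b were also highest, while Scn2a, Scn3a, Scn8a, Scn2b and Scn3b differed between the 4 h libraries by ratios of 0.944 to 1.03.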

How the results depend on the processing

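Of 257 log2 fold changes of the members recomputed under alternatives, 251 were counted as unchanged, which asks a change with a test to keep its direction and its side of the threshold, and a change with no test (1 of the 4 h libraries left out) to move by less than the spread of the 4 h pair. A change of sign within that spread, as for Scn1a without library 1, was thus counted as unchanged. No stability is read from this count. Leaving out 1 of the 4 h libraries shifts their mean by less than the pair's difference almost by construction. The changes at 1 h and 8 h do not compare the 4 h libraries, and an assumed coefficient of variation alters the test, not the fold. With library size alone, Scn2a at 1 h changed sign to -0.02 and Scn1a at 4 h to -0.09. Without either 4 h library in turn, the change at 4 h ranged from -0.24 to 0.29 for Scn1a and from 0.01 to 0.68 for Scn4b, as values with no test, and Scn3a was past 1.5-fold below the control in either library (1 member each, chosen after seeing the data). Of the 7 members, 1 (Scn3a) was called at 4 h with library size alone and 1 with no filter on low counts, and 0 in the other alternatives and at the other times. The cause was not tested. At a fold of 1.3, 2 members were below the control at 4 h, 1 was below at 8 h and 1 was above at 1 h, and at a fold of 2, 0 were below at 4 h. No shares of all genes are given at these folds, so these counts only show how the tally moves with the threshold. Over all genes, 0, 1 and 0 were called at 1, 4 and 8 h. Library size alone called 57, 237 and 22, DESeq2 56, 238 and 33, an assumed coefficient of variation of 0.2 called 238, 916 and 184 and one of 0.4 called 40, 81 and 12, and no filter called 285, 1300 and 279 of 32732 genes. Robust empirical Bayes called 1 at 1 h, at least 10 counts in every library called 1 at 1 h and 0 at 4 h, and RLE factors and limma-voom called 0 at 4 h. As shares of raw counts, not divided by length, Scn1a had 16.4%, 16.8%, 22.8%, 16.9% and 16.1% in the control, at 1 h, in the 4 h libraries 1 and 2 and at 8 h. Scn2a had 46.5%, 44.9%, 42.8%, 44.7% and 43.6%, Scn3a 8.07%, 7.9%, 4.59%, 5.17% and 8.44%, and Scn8a 29%, 30.5%, 29.8%, 33.2% and 31.9%, since Scn8a has the longest merged exons. No paired analysis was possible because only the 4 h group has replicate numbers. With a single library in 3 of the 4 groups, the spread of those groups is unknown.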

Other observations

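Markers of oligodendrocytes, their precursors and astrocytes were also summed in each library. Of all genes tested, 38.3% were below the control in both 4 h libraries, and no share is given for those above it. Counts of markers above the control are thus listed without a reading. The 6 oligodendrocyte markers were above the control in both 4 h libraries, with sums of 3199 normalized CPM in the control, then 3994 after 1 h, 3785 and 4876 after 4 h and 3199 after 8 h (most abundant Mbp). The 5 astrocyte markers summed to 1117, 1189.5, 1714, 1557 and 1455 in the same order (most abundant Slc1a3, and Gfap at 8 h), and 4 of 5 were above the control in both 4 h libraries. Gfap was at 269.6% and 231% of the control after 4 h and at 266% after 8 h, while Gja1 was at 99.8% and 104% after 4 h and at 50.7% after 8 h, and Aqp4 was at 96.5% after 8 h. The 4 markers of oligodendrocyte precursors summed to 179, 182, 172, 208 and 157 in the same order (most abundant Pdgfra), with 2 of 4 above and 2 of 4 below the control in both 4 h libraries. None of these sums was tested.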
